A study of Mus musculus with 10 samples.

Results

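The cytosolic ribosomal protein genes were taken as the protein-coding genes of GENCODE M21, a gene annotation of the mouse build GRCm38, whose symbol begins with Rpl or Rps. The Rps6k kinases and symbols with the ending -ps, which marks pseudogenes, were left out. This gave 86 of the 55401 gene identifiers counted. Of these, 51 encode proteins of the large ribosomal subunit or paralogs of them (Rpl3l, Rpl10l, Rpl22l1, Rpl36al and Rpl39l). A further 33 encode small subunit proteins or their paralogs (Rps27l and Rps27rt). The other 2, Rpl7l1 and Rps19bp1, carry such a symbol but encode factors of ribosome production that are not subunits of the mature particle. The genes lie on 19 chromosomes, with 14 on chromosome 7 and 4 (Rpl10, Rpl36a, Rpl39 and Rps4x) on the X chromosome.

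RNA was sequenced from Neuro2a cells, a mouse neuroblastoma line labelled wild-type, after transfection of a plasmid with Lipofectamine. The plasmid was dCas9-SCN9A (3 libraries), dCas9-empty (3 libraries), ZF-SCN9A (2 libraries) or mCherry (2 libraries), where dCas9 is a Cas9 that binds DNA without cutting it and ZF an engineered zinc-finger protein, both directed at SCN9A, the gene of the sodium channel NaV1.7. The mCherry plasmid, which encodes a red fluorescent protein, was taken as the control of ZF-SCN9A, since no empty zinc-finger plasmid is among the groups. The sources used here do not give what dCas9-empty leaves out, the share of cells that took up a plasmid or the promoters that drive the proteins.

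Ribosomes translate every cellular message, the small subunit reading the codons and the large subunit joining the amino acids. Their proteins are needed in near-equal numbers, and most of the messages begin with a run of pyrimidines, the terminal oligopyrimidine tract, through which mTOR signalling and the RNA-binding protein LARP1 set their translation together. In neuroblastoma, MYC family factors, MYCN above all, are known to raise transcription of genes for ribosome production.

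The targeted gene was checked first, with counts per 1e6 gene counts (CPM) scaled over all 10 libraries. Scn9a had 31.8, 31.9 and 29.1 CPM in dCas9-SCN9A libraries, against 77.7, 84.5 and 81.1 CPM in dCas9-empty libraries. It had 17.9 and 14.7 CPM in ZF-SCN9A libraries, against 59.2 and 53.4 CPM in mCherry libraries. Gene counts summed to 15.4 M to 16.4 M (M is 1e6 reads) in dCas9-SCN9A and 17.8 M to 19.0 M in dCas9-empty, but only 4.41 M to 6.30 M in ZF-SCN9A and 6.59 M to 7.48 M in mCherry. Of 10 marker genes of sympathetic neuroblasts and neurons, 9 were at 10.3 CPM or more in every library. The 6 immune markers together reached at most 2.26 CPM in ZF-SCN9A, 2.17 CPM in mCherry, 1.59 CPM in dCas9-SCN9A and 1.17 CPM in dCas9-empty. The 6 endothelial markers, of which Kdr and Cldn5 had 0 reads in ZF-SCN9A and mCherry, summed to 83.97 to 91.8 CPM in dCas9-SCN9A and 83.9 to 101.9 in dCas9-empty, and 55.9 to 56.8 in ZF-SCN9A and 47.8 to 52.7 in mCherry, most of it Vwf and Pecam1. The 6 glia markers summed to 27.3 to 30.1 CPM in dCas9-SCN9A and 27.8 to 29.3 in dCas9-empty, and 31.3 to 36.7 in ZF-SCN9A and 31.95 to 33.8 in mCherry, most of it Mbp. The 6 fibroblast markers summed to between 8.37 CPM and 22.5 CPM over the 10 libraries.

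The sequences around the transcription start are shown for Rpl28, which rose with the zinc finger, for Rpl13a, which had the lowest change there, and for Rps27 and its retrogene copy Rps27rt, which share a coding sequence but not a level. Each line holds 40 bases before the start and 20 after it, from RefSeq on GRCm38.p6, 5′ to 3′ on the gene's strand, with the longest run of pyrimidines in capitals. They lie at chr7:4792925-4792984 on the plus strand (Rpl28), chr7:45128726-45128785 on the minus strand (Rpl13a), chr3:90213629-90213688 on the minus strand (Rps27) and chr9:114982720-114982779 on the minus strand (Rps27rt).
Rpl28: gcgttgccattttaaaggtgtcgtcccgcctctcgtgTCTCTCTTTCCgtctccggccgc
Rpl13a: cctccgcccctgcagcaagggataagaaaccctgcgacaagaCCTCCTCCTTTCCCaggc
Rps27: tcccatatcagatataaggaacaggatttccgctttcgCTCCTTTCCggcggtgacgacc
Rps27rt: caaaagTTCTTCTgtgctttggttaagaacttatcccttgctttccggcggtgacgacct

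The run spans 11 bases at Rpl28, 14 at Rpl13a and 9 at Rps27, while the longest run in the Rps27rt window has 7. The windows of Rps27 and Rps27rt share 19 identical bases in a row, which in both lie in the transcribed part, after the start. RefSeq promoters (250 bases before to 50 after the start) were found for 66 of the 86 genes, in 78 windows, and all counts below take a gene as positive if any of its windows is. A run of at least 8 pyrimidines within 50 bases of the start was present at 80.3% of these 66 genes, against 39.3% of all 27025 genes with a window. The letters CCGGAAG, the core bound by ETS factors such as GABPA, occurred on either strand at 39.4% of the 66 genes and 9.93% of all genes. AANATGGC, the core bound by YY1, occurred on either strand at 19.7% of the 66 genes and 6.96% of all genes. These are matches of letters, not measured binding.

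Ribosomal protein messages made up 4.72% to 6.77% of gene counts over the 10 libraries. Reads on the 86 genes held 6.07%, 6.77% and 6.17% of gene counts in dCas9-SCN9A libraries, against 6.08%, 6.32% and 6.002% in dCas9-empty libraries. They were 5.13% and 5.25% in ZF-SCN9A libraries, against 4.72% and 4.92% in mCherry libraries. The groups overlapped in the dCas9 comparison and did not overlap in the zinc-finger comparison. In bulk RNA, a change in these messages per cell and a change in the number of cells that carry more of them cannot be told apart.

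**Figure D1:**
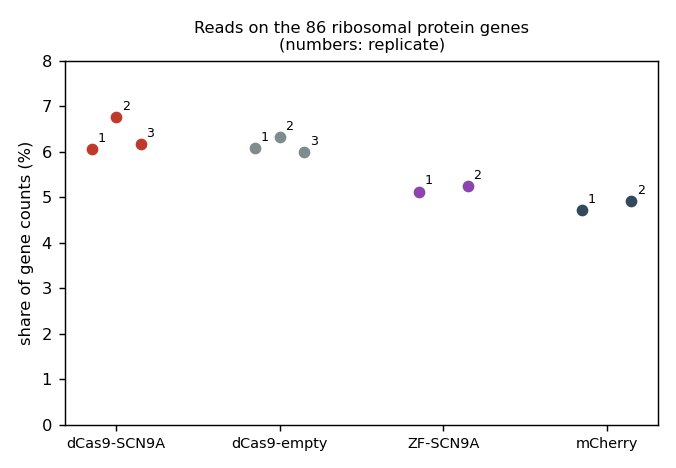
Share of gene counts (%, vertical axis from 0) that fell on the 86 ribosomal protein genes in each library, by group, with replicate numbers beside the points. dCas9-SCN9A replicate 2 was the highest library at 6.77%, and both ZF-SCN9A libraries (5.13% and 5.25%) lay above both mCherry libraries (4.72% and 4.92%).

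Levels were set per length, as CPM divided by the coding length in kilobases (CPM per coding kilobase, scaled over all 10 libraries). On this scale 57 of the 86 genes averaged at least 1000 over the 10 libraries, 78 at least 100 and 81 at least 10. Over the 46 large subunit genes without paralogs, the median level was 1587 in dCas9-SCN9A and 1584 in dCas9-empty, and 1155.5 in ZF-SCN9A and 1119 in mCherry. Over the 31 small subunit genes without paralogs it was 1765 in dCas9-SCN9A and 1745 in dCas9-empty, and 1289 in ZF-SCN9A and 1232 in mCherry. The medians of the 2 subunits were close in each group, and the plot of levels by gene shows the spread behind them.

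Rpl41, which encodes the smallest ribosomal protein, with 75 coding bases, had by far the highest level. It stood at 17895 ± 808.5 CPM per coding kilobase in dCas9-SCN9A and 18229.9 ± 895 in dCas9-empty (SD, n = 3 each). It stood at 15049 ± 556 in ZF-SCN9A and 14337 ± 77.2 in mCherry (SD, n = 2 each). For so short a frame the value also counts reads of the untranslated parts. The next 4, Rps26, Rps12, Rps24 and Rps29, all small subunit proteins, averaged 2799, 2739, 2649 and 2570.4 over the 10 libraries. In dCas9-SCN9A their means lay between 3086 and 3151 with SDs of 154.5 to 369, so their order is not resolved there. In mCherry they stood apart, at 2391 ± 67.4, 2280 ± 8.76, 2112 ± 5.98 and 1740 ± 63.3 in the same order (SD, n = 2 each), and in ZF-SCN9A Rps29 was again the lowest of the 4, at 2011 ± 149.6. These ranks hold for the mean of the 10 libraries, not for each group. Rplp0 and Rplp1 of the large subunit had means above that of Rps29 in mCherry (2091 and 2019) and in ZF-SCN9A (2209 and 2391).

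**Figure D2:**
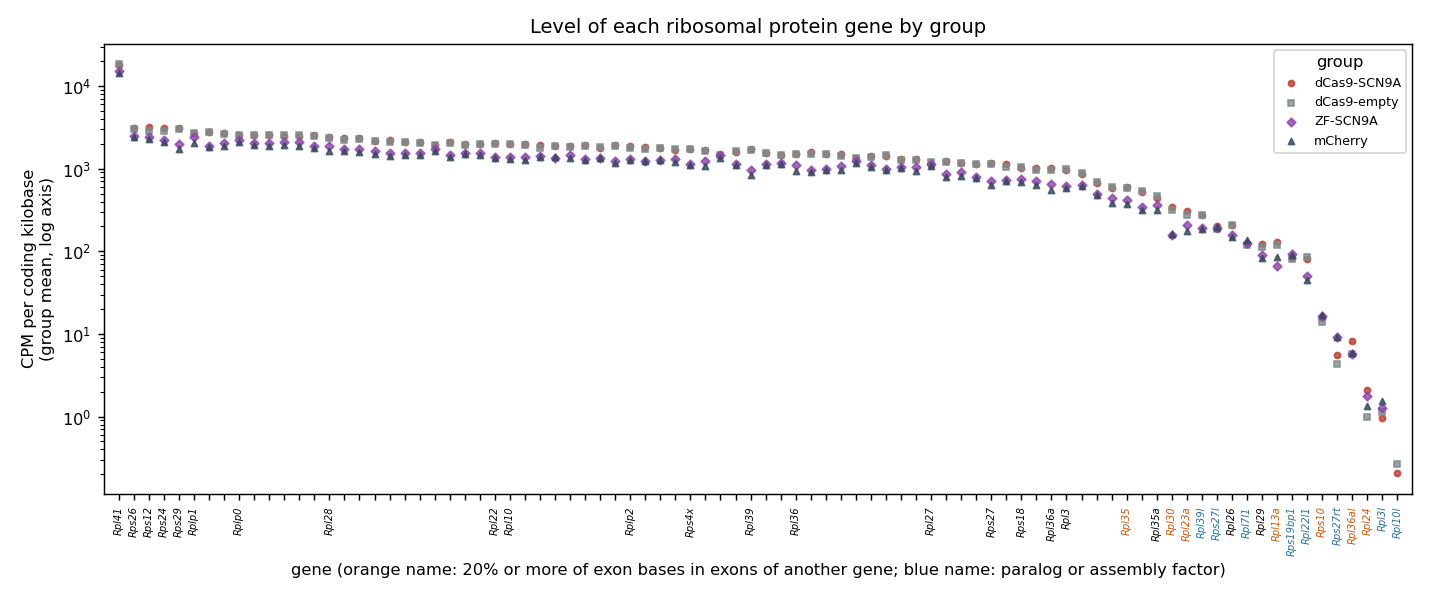
Mean level of each of the 86 genes in each group, as CPM per coding kilobase (log axis), with genes ordered by their level; orange names mark genes with 20% or more of exon bases in exons of another gene, blue names paralogs and assembly factors. Most genes lie near 1000 to 3000, Rpl41 stands above them, and the low end holds most of the paralogs together with some core genes, with and without exons shared with another gene. Only genes named in the text carry a label.

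The low end was mixed. Rpl24 and Rps10, core proteins of the large and small subunit, averaged only 1.55 and 15.5 CPM per coding kilobase over the 10 libraries. Rpl24 (chromosome 16, 55966275 to 55971435) had 8, 10 and 28 reads in dCas9-SCN9A, 8, 6 and 10 in dCas9-empty, 4 and 5 in ZF-SCN9A, and 7 and 2 in mCherry. Exons of Gm28037, an annotated gene on the same strand, cover 47.0% of Rpl24's exon bases, and Gm28037 itself had 0 reads in every library. Rps10 overlaps RPS10-NUDT3 on the same strand, which covers 20.5% of its exon bases, shares 90.7% of its coding stretches of 50 bases, and also had 0 reads in every library. In this file layout, reads that lie in exons of more than 1 gene are listed as ambiguous and given to none, so reads from the shared bases are missing from these levels. The share of overlapped exon bases and the level had a Spearman's rho of -0.0748 across the 86 genes. Of the 12 members with 20% or more of their exon bases overlapped, 4 averaged at least 1000. That share counts both strands and all annotated exons, so it cannot weigh overlap of coding bases on the same strand. The part of overlap in the levels was not tested. Rpl29 and Rpl26, core genes with no overlapped exon base, chosen after their values were seen, averaged only 105.5 and 186.5. Of their coding stretches of 50 bases, 90.3% and 87.4% also occur in other genes. Ambiguous reads were 4.18% to 4.44% of the listed reads.

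Nearly every member shares coding stretches with other annotated genes. Some of these genes overlap the member at its own locus, such as Gm45713 at Rpl13a, RPS10-NUDT3 at Rps10 and Gm49383 at Rpl36al. In 70 of the 86 genes at least 50% of the 50-base stretches of the coding sequence occur in a transcript of another gene, in 29 genes every stretch does, and in 4 genes, among them Rpl3l, Rpl39l and Rps19bp1, none does. The annotation holds 298 pseudogenes named after 60 of the members. These pseudogenes took 0.736% to 0.963% of the reads on members and pseudogenes together. Reads placed at several sites, which are counted for no gene, were 8.82% to 8.98% of listed reads in dCas9-SCN9A and 7.99% to 8.35% in dCas9-empty, and 6.83% to 7.07% in ZF-SCN9A and 6.62% to 6.69% in mCherry. Counts of members that share stretches are therefore uncertain. Over the 86 genes, Spearman's rho of level with the percentage of stretches shared was 0.064 (across genes, which are not independent replicates). Over the 77 subunit genes without paralogs it was -0.0872. There the rho of level with the number of genes that share stretches was -0.254.

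Most paralogs were low as well. Rps27rt, a retrogene on chromosome 9, matches Rps27, a zinc-binding small subunit protein encoded on chromosome 3, in all 255 coding bases. Rps27l, which is also known as a p53 target, matches it in 76.1%. Rpl39l and Rpl36al match Rpl39 and Rpl36a in 85.3% and 87.9%. Exons of Gm49383 on the same strand cover 24.5% of Rpl36al's exon bases, and Gm49383 holds 93.4% of its coding 50-base stretches. Gm49383 had 0 reads in every library, and reads from the shared bases are missing from the level of Rpl36al. The first 60 coding bases (GENCODE M21 transcripts) are shown because they decide which reads can be told apart; capitals mark the bases that differ from the parent, the first of each family.
Rps27: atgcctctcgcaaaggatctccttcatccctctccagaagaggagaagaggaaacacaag
Rps27rt: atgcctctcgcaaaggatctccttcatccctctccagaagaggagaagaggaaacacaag
Rps27l: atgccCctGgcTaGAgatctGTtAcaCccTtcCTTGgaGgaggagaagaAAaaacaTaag
Rpl39: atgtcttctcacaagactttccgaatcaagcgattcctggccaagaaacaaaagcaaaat
Rpl39l: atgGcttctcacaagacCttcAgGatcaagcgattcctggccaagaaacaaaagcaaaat
Rpl36a: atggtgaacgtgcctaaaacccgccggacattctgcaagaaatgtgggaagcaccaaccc
Rpl36al: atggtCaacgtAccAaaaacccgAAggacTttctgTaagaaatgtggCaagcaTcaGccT

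In these 60 bases Rps27rt differs from Rps27 at 0 positions and Rps27l at 18, Rpl39l differs from Rpl39 at 4, and Rpl36al differs from Rpl36a at 11. Rps27l had 17.2 ± 1.64% of the level of Rps27 in dCas9-SCN9A and 16.8 ± 0.894% in dCas9-empty (SD, n = 3 each). It had 27.1 ± 2.64% in ZF-SCN9A and 31.7 ± 0.871% in mCherry (SD, n = 2 each). Rpl39l had 16 ± 0.218% of the level of Rpl39 in dCas9-SCN9A and 16.2 ± 1.46% in dCas9-empty, and 19.7 ± 2.35% in ZF-SCN9A and 22.2 ± 1.40% in mCherry. In mouse, Rpl39l is known mainly from male germ cells. It stood at 274 ± 7.72 CPM per coding kilobase in dCas9-SCN9A and 273 ± 25.0 in dCas9-empty, and 191 ± 28.5 in ZF-SCN9A and 189 ± 11.7 in mCherry. Rps27l, the next paralog, stood at 202 ± 17.4 in dCas9-SCN9A and 188 ± 5.23 in dCas9-empty, lower than Rpl39l, and at 189.8 ± 8.50 in ZF-SCN9A and 199 ± 4.37 in mCherry, where the 2 were within their spread.

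The other paralogs had low levels. Rpl22l1, the partner of Rpl22, had 3.90% and 4.31% of its parent's level in dCas9-SCN9A and dCas9-empty, and 3.62% and 3.30% in ZF-SCN9A and mCherry. Rpl3l, the muscle form of Rpl3, had at most 0.244% of it in ZF-SCN9A, 0.363% in mCherry and 0.137% in either dCas9 group. Rps27rt held 5 to 24 reads in ZF-SCN9A, 11 to 22 in mCherry, 20 to 23 in dCas9-SCN9A and 15 to 22 in dCas9-empty, and since its coding sequence is that of Rps27, only reads that reach its untranslated parts can belong to it alone. Rpl10l, a testis form of Rpl10, had 6, 0 and 0 reads in dCas9-SCN9A, 7, 1 and 1 in dCas9-empty and 0 in the 4 libraries of ZF-SCN9A and mCherry. It was the member without a read in some libraries, the other 85 having at least 1 in every library. Between each group and its control, the changes of the 6 tested paralogs did not pass adjustment, with smallest adjusted p = 0.457 in the dCas9 comparison and adjusted p = 0.717 in the zinc-finger comparison (edgeR's quasi-likelihood test, Benjamini-Hochberg adjustment over all genes).

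The dCas9 comparison asked whether directing dCas9 at SCN9A changed ribosomal protein messages, and no member passed. Of 84 members tested (Rpl10l and Rpl24 failed the filter on low counts), 0 had an adjusted p under 0.05 in edgeR's quasi-likelihood test, where 0.041% of all 14628 genes did. The smallest adjusted p was 0.395, for Rpl23a. DESeq2 and limma-voom also called 0, with 5 and 7 members at an unadjusted p under 0.05. At an unadjusted p under 0.05 by edgeR, 7 members were higher, or 8.33%, beside 4.17% of all genes, and 0 were lower, beside 5.92%. All 3 dCas9-SCN9A libraries lay above all 3 dCas9-empty libraries for 5 members (Rpl13a, Rpl30, Rpl36al, Rps12 and Rps27rt), beside 6.5% of all genes. These 5 make up 5.95% of the 84 members, close to that background.

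Among members at 10 CPM or more, changes ran from -0.11 to 0.16 on the log2 scale. Rpl23a, a large subunit protein at the peptide exit, averaged 139 ± 8.13 CPM in dCas9-SCN9A and 124 ± 8.90 CPM in dCas9-empty (SD, n = 3 each). Its log2 fold change was 0.16 ± 0.06 (SE), and its groups overlapped. Over the 17 alternatives that change ran from 0.0566 to 0.218. Rps24, a small subunit protein known from Diamond-Blackfan anaemia, had 1111.5, 1366 and 1151 CPM in dCas9-SCN9A, against 1034, 1124 and 1100.3 CPM in dCas9-empty (log2 0.16 ± 0.07). Rps12 had 1159, 1308 and 1165 CPM in dCas9-SCN9A, against 1031, 1145 and 1113 CPM in dCas9-empty (log2 0.14 ± 0.07). The lowest changes among members at 10 CPM or more were Rpl27 (log2 -0.11 ± 0.06), Rpl22l1 (-0.10 ± 0.09), Rpl35a (-0.05 ± 0.06) and Rps18 (-0.04 ± 0.06). In each of these the groups overlapped. Larger values came from members with few reads. Rpl36al had 2.65, 2.54 and 2.47 CPM in dCas9-SCN9A, against 1.35, 1.81 and 2.03 CPM in dCas9-empty (log2 0.56 ± 0.25, unadjusted p = 0.0358 by edgeR, adjusted p = 0.457). Rps27rt changed by 0.38 ± 0.30 (adjusted p = 0.717) and Rpl3l by -0.22 ± 0.34 (adjusted p = 0.877).

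Over the 84 members, 64 had a log2 fold change above 0 and 20 below, with a median of 0.03, beside 0.01 over all genes tested. The median was 0.03 for the large subunit and 0.04 for the small. The direction rested on 1 library: dCas9-SCN9A replicate 2 held the highest value of the 6 libraries for 69 of the 84 members, with a median log2 ratio of 0.13 to the mean of the libraries, while replicates 1 and 3 of that group stood at -0.05 and -0.03. Without replicate 2 of dCas9-SCN9A the median became -0.03, with 30 of 85 members above 0. With another library left out, between 55 (dCas9-empty replicate 3) and 78 (dCas9-empty replicate 2) of 85 members were above 0. Over all genes tested, Spearman's rho of the log2 fold change with exon length was -0.348. Within the 84 members that rho was -0.0392. The members are short, with a median exon length of 1736.5 bases beside 3984.5 over all genes tested. After a correction for exon length the median was -0.01, with 36 members above 0 and 48 below.

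**Figure D3:**
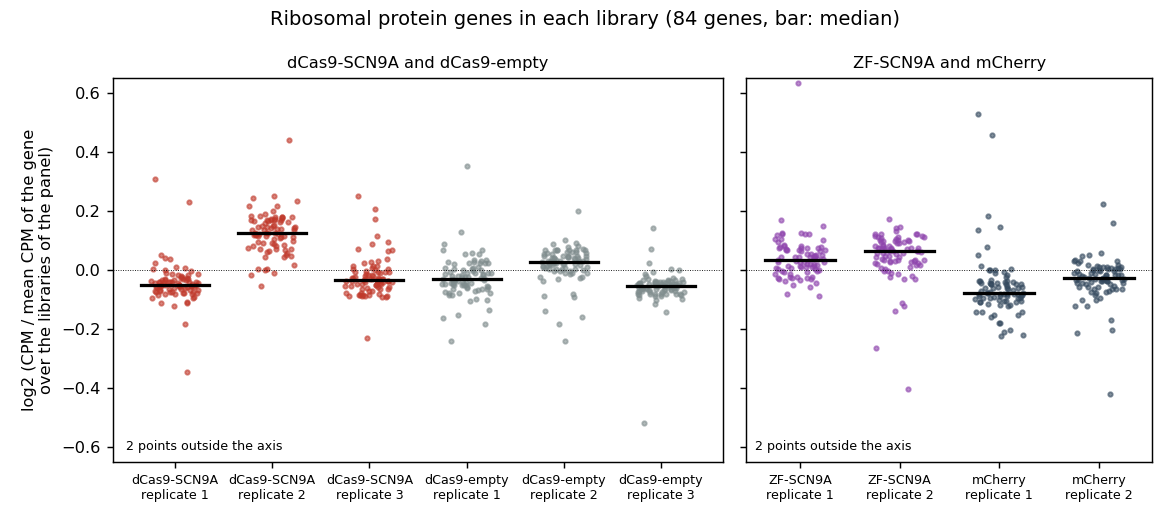
Each point is 1 of the 84 tested members in 1 library, as the log2 ratio of its CPM to its mean over the libraries of its panel; bars are medians. In the left panel the median of dCas9-SCN9A replicate 2 is 0.13 while replicates 1 and 3 lie at -0.05 and -0.03; in the right panel both ZF-SCN9A libraries (0.04 and 0.06) lie above both mCherry libraries (-0.08 and -0.03).

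The zinc-finger comparison asked the same of ZF-SCN9A, and 5 members rose while none fell. They were Rplp1, Rpl36, Rpl36a and Rpl28 of the large subunit and Rps29 of the small subunit (values below). The 5 were 5.95% of the 84 members tested, where 4.72% of all 12899 genes passed in either direction and 1.95% passed as higher. At an unadjusted p under 0.05, 23 members were higher (27.4%) and 1, Rpl13a, was lower, beside 7.78% of all genes higher and 8.4% lower. Both ZF-SCN9A libraries lay above both mCherry libraries for 56 members (66.7%), beside 23.3% of all genes, and below them for 3, among them Rpl13a and Rpl7l1. Over the 84 members, 77 had a log2 fold change above 0 and 7 below, with a median of 0.09 beside 0.00 over all genes tested. Markers of the cell line moved in the same comparison: of 9 tested, Dbh (log2 0.71 ± 0.18, adjusted p = 0.0031) and Chga (0.25 ± 0.07, adjusted p = 0.0067) rose, and Isl1 (-0.41 ± 0.10, adjusted p = 0.0047) and Hand2 (-0.20 ± 0.06, adjusted p = 0.0426) fell. Of 3 fibroblast markers tested, Col1a1 also rose, at 6.399 ± 1.03 CPM in ZF-SCN9A and 3.09 ± 0.173 CPM in mCherry (SD, n = 2 each; log2 1.07 ± 0.35, adjusted p = 0.0453). The median log2 fold change of the 3 was 0.09, and Pdgfra, the lowest, was at -0.22. The part of these markers in the ribosomal protein changes was not tested.

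Rplp1 and Rplp2 form the flexible stalk that recruits translation factors to the large subunit, anchored by Rplp0. Rplp1 (chromosome 9, 61913284 to 61914542, minus strand) had 834 and 899.7 CPM in ZF-SCN9A, against 693 and 763 CPM in mCherry. The groups did not overlap, and the log2 fold change was 0.25 ± 0.06 (SE, adjusted p = 0.0023). Rplp2 had 477 and 489 CPM in ZF-SCN9A, against 447 and 466 CPM in mCherry, with a log2 fold change of 0.08 ± 0.06 (adjusted p = 0.586). Rplp0 had 2179 and 2276 CPM in ZF-SCN9A, against 2045 and 2149 CPM in mCherry (log2 0.09 ± 0.06, adjusted p = 0.506). In the dCas9 comparison the 3 stalk genes changed by -0.01 ± 0.06, 0.06 ± 0.06 and 0.01 ± 0.07 for Rplp1, Rplp2 and Rplp0, with overlapping groups.

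Rpl36 (chromosome 17, 56613416 to 56614243, plus strand) had 361 and 376 CPM in ZF-SCN9A, against 301 and 326 CPM in mCherry. Its log2 fold change was 0.23 ± 0.06 (adjusted p = 0.0124). Rpl36a (X chromosome, 134585654 to 134588062, plus strand), whose first coding bases are printed above, had 217 and 221.5 CPM in ZF-SCN9A, against 175 and 194 CPM in mCherry, with a log2 fold change of 0.25 ± 0.07 (adjusted p = 0.0162). Every 50-base stretch of its coding sequence also occurs in another gene's transcript, and for Rpl36 98.1% do. Rpl28 (chromosome 7, 4792874 to 4795066, plus strand) had 805 and 816 CPM in ZF-SCN9A, against 689.5 and 731.5 CPM in mCherry, a log2 fold change of 0.19 ± 0.06 (adjusted p = 0.0440).

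Rps29 (chromosome 12, 69157722 to 69159186, minus strand), a small zinc-binding protein of the small subunit, had 374 and 342 CPM in ZF-SCN9A, against 299.8 and 316.5 CPM in mCherry. Its log2 fold change was 0.22 ± 0.06 (adjusted p = 0.0222). Rpl23a had the highest change of all members and missed the threshold, at 103 ± 0.111 CPM in ZF-SCN9A and 85.6 ± 2.55 CPM in mCherry (SD, n = 2 each; log2 0.26 ± 0.09, adjusted p = 0.0581). Over the 15 alternatives the log2 fold change of Rpl23a ran from 0.0669 to 0.294. Exons of Tlcd1 on the opposite strand cover 59.7% of its exon bases, and in this layout reads in the shared bases are counted for neither gene. In all of these genes the ZF-SCN9A libraries were above the mCherry libraries, as the plot of CPM by library shows for the called ones.

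**Figure D4:**
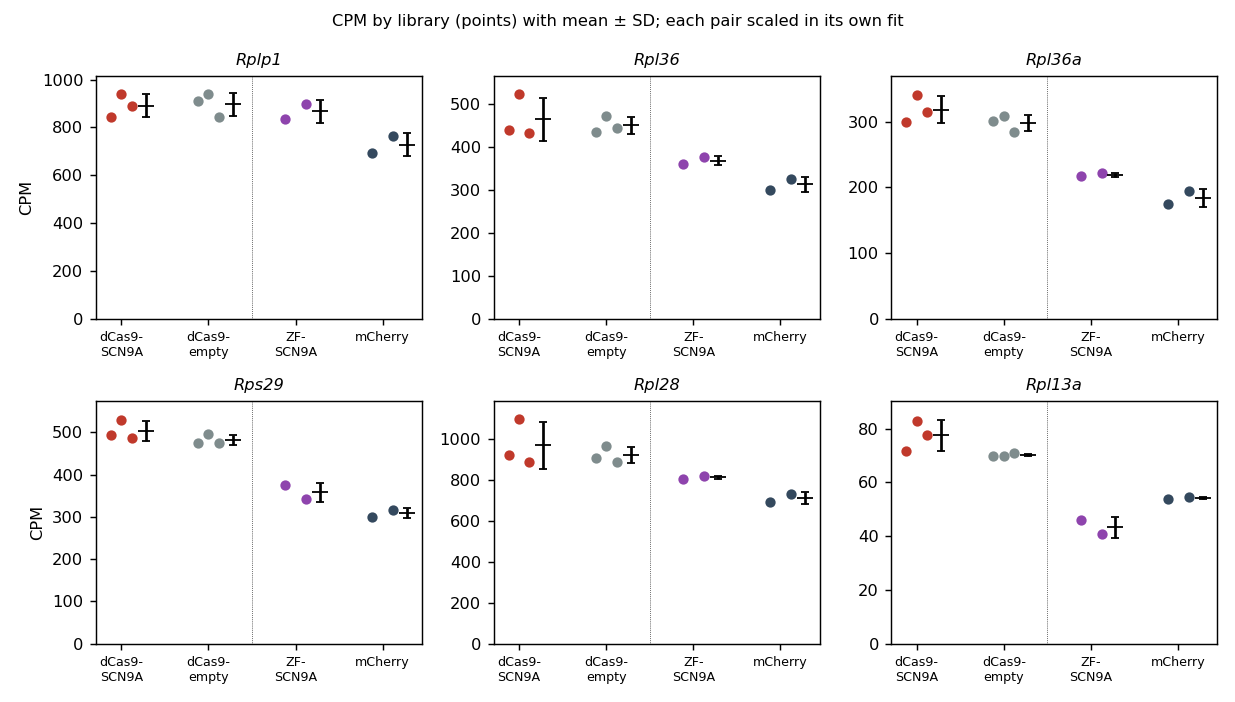
CPM of the 5 members that passed in the zinc-finger comparison, and of Rpl13a, in each library (points) with mean ± SD beside them; axes start at 0 and each pair of groups is scaled in its own fit. For Rplp1, Rpl36, Rpl36a, Rps29 and Rpl28 both ZF-SCN9A points lie above both mCherry points while the dCas9 groups overlap, and for Rpl13a both ZF-SCN9A points (46.1 and 40.6 CPM) lie below both mCherry points (54.0 and 54.5 CPM).

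Both subunits had about the same median. The median log2 fold change was 0.09 for 49 large subunit genes, of which 4 passed, and 0.09 for 33 small subunit genes, of which 1 passed. The 71 tested members at 100 CPM or more had a median of 0.09, with 69 above 0. mCherry replicate 1 held the lowest value of the 4 libraries for 59 of the 84 members, while the highest value was in ZF-SCN9A replicate 2 for 49 and replicate 1 for 27. Within the members, shorter exons went with larger changes (Spearman's rho -0.33 with exon length over 84 genes), and over all genes tested that rho was -0.124. After the correction for exon length the median was 0.06 with 72 members above 0, and 0 passed.

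The 5 calls depend on the fit. None passed with DESeq2 (smallest adjusted p = 0.0974, 12 at an unadjusted p under 0.05), in a fit of all 10 libraries, or with the strand column, and leaving out a library gave 0 (either ZF-SCN9A library), 1 (mCherry replicate 1, that gene being Rpl35) or 9 (mCherry replicate 2). With 2 libraries a group, 88.0% of genes in this fit took their spread from all genes together, so these p-values rest little on the spread of the member itself.

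**Figure D5:**
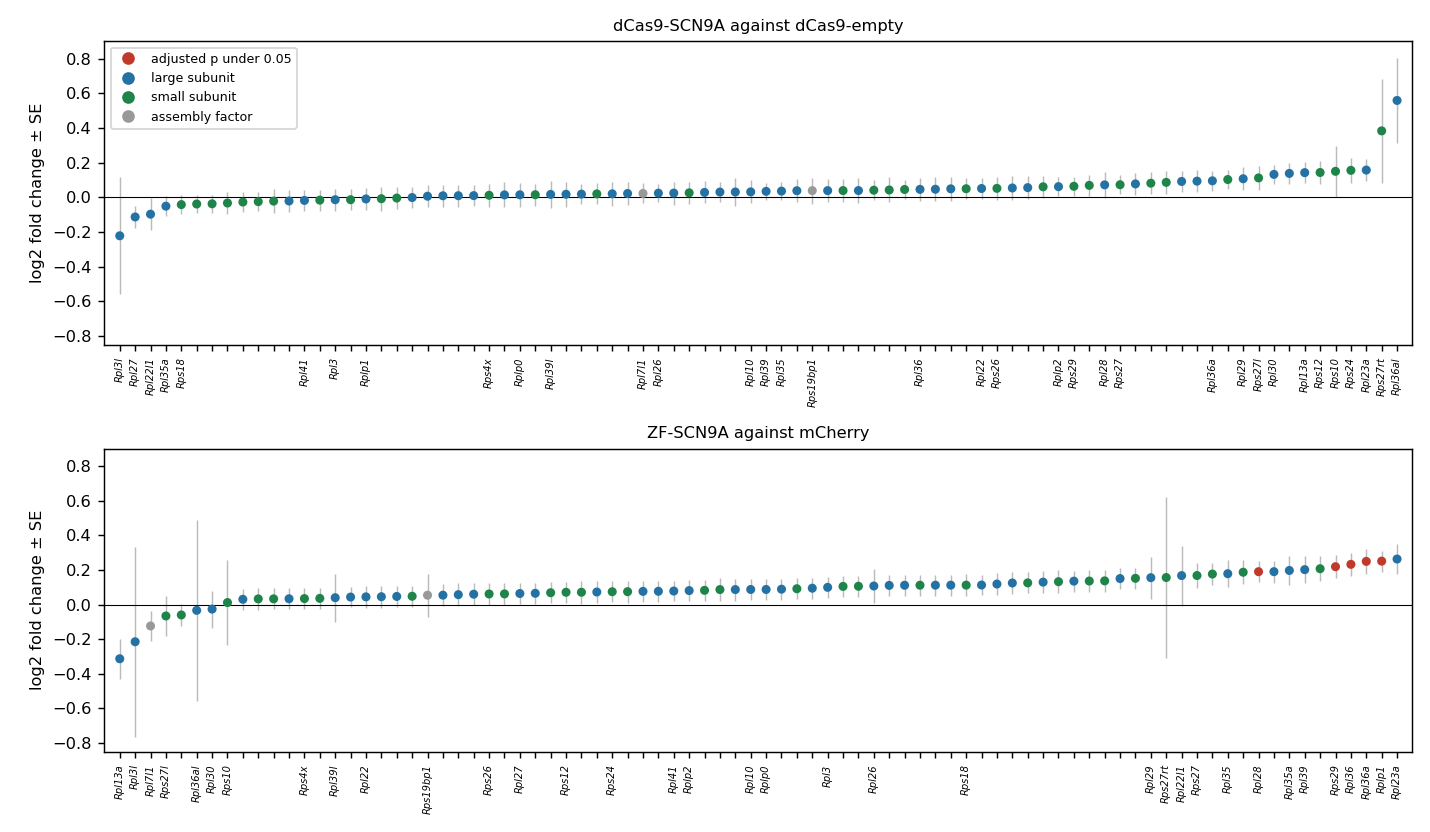
Log2 fold change ± SE of each of the 84 tested members, ordered by size, for dCas9-SCN9A against dCas9-empty (top) and ZF-SCN9A against mCherry (bottom); blue marks large subunit genes, green small subunit genes, grey the 2 assembly factors and red an adjusted p under 0.05. The top panel is spread about 0 with a median of 0.03 and no red point; in the bottom panel 77 of 84 points lie above 0 and 5 are red. Only genes named in the text carry a label.

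Rpl13a had the lowest change of all members in the zinc-finger comparison. It encodes a large subunit protein that is also known as part of a complex that blocks translation of certain inflammatory messages. It had 46.1 and 40.6 CPM in ZF-SCN9A, against 54.0 and 54.5 CPM in mCherry, and 71.8, 83.0 and 77.5 CPM in dCas9-SCN9A, against 69.9, 69.8 and 70.8 CPM in dCas9-empty. The groups of neither pair overlapped, and the signs were opposite. The log2 fold change was -0.31 ± 0.12 with the zinc finger (adjusted p = 0.0958) and 0.14 ± 0.06 with dCas9 (adjusted p = 0.435), neither of which passed.

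The test of the difference itself, the dCas9 change minus the zinc-finger change over all 10 libraries, gave 0.46 ± 0.12 for Rpl13a (adjusted p = 0.0591). It passed without a filter on low counts (adjusted p = 0.0379) and after the correction for exon length (adjusted p = 0.0481). It also passed with pseudogene reads added to the parent (adjusted p = 0.0383) and without dCas9-SCN9A replicate 1 (adjusted p = 0.0281). Under most alternatives the difference did not pass. The adjusted p was 0.0818 by DESeq2, 0.145 by limma-voom and 0.0711 by edgeR with the strand column. Without dCas9-SCN9A replicate 2 or 3 it was 0.0975 and 0.0983 by edgeR. Over the 20 alternatives the difference ran from 0.381 to 0.581. The level of Rpl13a was low for a subunit gene. It stood at 131 ± 10.1 CPM per coding kilobase in dCas9-SCN9A and 119.5 ± 0.989 in dCas9-empty, and 67.2 ± 6.60 in ZF-SCN9A and 84.4 ± 0.375 in mCherry. Exons of other genes cover 35.4% of its exon bases, most of that by Gm45713 on the same strand, which holds 97.5% of its coding 50-base stretches and had 0 reads in every library. In this layout its count comes from the exon bases outside Gm45713.

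For the members as a group, the difference between both changes passed for 0 of 85 tested, beside 0.907% of all 15766 genes. DESeq2 and limma-voom called 0 as well, each with 4 members at an unadjusted p under 0.05. By edgeR 4 members had an unadjusted p under 0.05, with Rpl13a above 0 and 3 below, among them Rplp1 (-0.25 ± 0.09) and Rpl35a (-0.24 ± 0.10). The median difference was -0.06, with 67 of 85 members below 0. Of the 84 members tested in both comparisons, 58 had a positive change in both, 19 a positive change with the zinc finger alone, 6 with dCas9 alone and 1 in neither. The zinc-finger change was the larger for 69. The 2 comparisons share no library, but they differ in depth and control plasmid, whose part in these differences was not tested.

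Lists of genes whose products work with these proteins were read in the same fits. Fau, which encodes the small subunit protein eS30 as a fusion and falls outside the symbol rule, rose, at 415 ± 34.97 CPM in ZF-SCN9A and 359.7 ± 43.9 CPM in mCherry (SD, n = 2 each; log2 0.20 ± 0.06, adjusted p = 0.0376). Its ZF-SCN9A and mCherry libraries overlapped all the same. Rack1, a scaffold on the small subunit, had a log2 fold change of 0.07 ± 0.06. With dCas9 Fau changed by 0.03 ± 0.07 and Rack1 by 0.00 ± 0.07 on the log2 scale, and neither passed.

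Of 20 translation factors and other genes whose messages also begin with an oligopyrimidine tract, 1 passed with the zinc finger, and it fell; that is 5% of the list, beside 4.72% of all genes that passed. Nap1l1, a histone chaperone, averaged 767 ± 2.82 CPM in ZF-SCN9A and 933 ± 23.8 CPM in mCherry (SD, n = 2 each; log2 -0.28 ± 0.06, adjusted p = 3.1e-04). The highest of the list were Eef1d (0.19 ± 0.07, adjusted p = 0.0856) and Eef2, the translocation factor (0.12 ± 0.06, adjusted p = 0.260). The median of the 20 was 0.01, with 13 above 0, and with dCas9 it was 0.01, with 11 above 0 and 0 passing (0 at an unadjusted p under 0.05).

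Of 55 ribosome assembly factors, 0 passed with the zinc finger by edgeR, and 20 were above 0 and 35 below, with a median of -0.03; the ends of the list were Dkc1, a pseudouridine synthase (0.17 ± 0.11), and Polr1e, an RNA polymerase I subunit (-0.26 ± 0.15). At an unadjusted p under 0.05, 0 were higher and 3 lower (5.45%, beside 8.4% of all genes lower). With dCas9, 33 of the 55 were above 0, the median was 0.01 and 0 passed (1 higher and 0 lower at an unadjusted p under 0.05), with Nop56, a box C/D ribonucleoprotein component, highest (0.19 ± 0.07, adjusted p = 0.378). The 2 assembly factors among the members, Rpl7l1 and Rps19bp1, changed by -0.12 ± 0.09 and 0.05 ± 0.12 with the zinc finger, and Rpl7l1 was 1 of the 3 members whose ZF-SCN9A libraries both lay lower, at 102 and 94.9 CPM, against 109 and 107 CPM in mCherry.

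Of 16 regulators of ribosomal protein messages, 8 were above 0 and 8 below with the zinc finger. In that comparison 1 passed (6.25%, beside 4.72% of all genes). At an unadjusted p under 0.05, 1 was higher (6.25%, beside 7.78% of all genes) and 2 lower (12.5%, beside 8.4%). The gene that passed, Eif4ebp1, the mTOR-controlled repressor of cap-dependent translation, rose with the zinc finger, at 329 ± 0.137 CPM in ZF-SCN9A and 276 ± 6.16 CPM in mCherry (SD, n = 2 each; log2 0.25 ± 0.07, adjusted p = 0.0049). With the zinc finger Mycn was the lowest of the list, at 54.2 ± 1.24 CPM in ZF-SCN9A and 65.5 ± 2.89 CPM in mCherry (log2 -0.27 ± 0.11, adjusted p = 0.131). With dCas9 Mycn stood at 131 ± 9.42 CPM in dCas9-SCN9A and 145 ± 3.03 CPM in dCas9-empty (log2 -0.15 ± 0.06, adjusted p = 0.398). Deptor (-0.17 ± 0.06, adjusted p = 0.356) and Larp4 (-0.17 ± 0.05, adjusted p = 0.310) were lower there. Myc changed by 0.09 ± 0.07 and 0.05 ± 0.05 in the 2 comparisons. With dCas9, 5 of the 16 were above 0 and 0 passed by edgeR, with 0 higher and 4 lower at an unadjusted p under 0.05 (25.0%, beside 5.92% of all genes lower).

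Mitochondrial ribosomal proteins, which are encoded in the nucleus but build the ribosome of the mitochondrion, also had a positive median. Of 77 tested, 49 were above 0 with the zinc finger, with a median of 0.07, and 59 with dCas9, with a median of 0.04. None passed by edgeR in either comparison. At an unadjusted p under 0.05, 9 were higher with the zinc finger (11.7%, beside 7.78% of all genes) and 2 lower (2.60%, beside 8.4%). With dCas9, 5 were higher (6.49%, beside 4.17%) and 0 lower. The highest with the zinc finger was Mrps33 (0.46 ± 0.18, adjusted p = 0.123) and the lowest Mrps6 (-0.30 ± 0.14, adjusted p = 0.256). With dCas9 they were Mrpl33 (0.37 ± 0.10, adjusted p = 0.21) and Mrps25 (-0.19 ± 0.10, adjusted p = 0.540).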

How the data were processed

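RNA was extracted with an RNeasy kit, libraries were made with NEBNext Ultra II and run on a NovaSeq, per the labels. Each deposited file holds raw read counts per gene as STAR writes them: 1 column without strand and 2 by strand. The submitters' processing notes name STAR 2.7.3a, bcl2fastq 2.20, DESeq2 and GRCm38. The sources used here give no read length, annotation or counting settings. The unstranded counts were used. Entries that name no gene and the 4 plasmid entries stayed out of library sizes and tests; the entries that name no gene held 25.0% to 28.2% of listed reads. Of the gene identifiers, 55141 were found in GENCODE M21.

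Counts were tested with edgeR 4.0.16 (limma 3.58.1, R 4.3.3): quasi-likelihood test, robust fit, scaling by TMM, its own low-count filter, two-sided p-values with Benjamini-Hochberg adjustment over all genes tested, threshold 0.05. Each pair of groups had its own fit; the difference came from 1 fit of all 10 libraries. CPM in a comparison are scaled in its own fit. The script was tested on simulated data. Alternatives were DESeq2 1.42.0 (5 members in the dCas9 and 3 in the zinc-finger comparison had no adjusted p and stay out), limma-voom, other scalings and filters, each library left out, the replicate number as a block, exon length offsets, a strand column and pseudogene reads added to the parent. The members named were those called, the 4 highest and lowest changes at 10 CPM or more, the 5 highest and lowest levels, paralog pairs, stalk proteins and non-subunits; levels use coding length in place of exon length, since long untranslated isoforms inflate the exon length. Members and lists were chosen with earlier results of these data known. All replicate pairs differed beyond sampling noise, with a chi-square per degree of freedom of 1.98 to 8.31. The labels do not say that replicates were separate cultures, so the p-values reflect the spread of these libraries alone, and that may be technical. Some genes are not reported here.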

Additional observations from a re-analysis of the deposited data

How the results depend on the processing

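In the dCas9 comparison 0 members passed under every alternative run. The 5 calls with the zinc finger became 8 with plain library sizes, 1 without a filter on low counts, and 0 with DESeq2, in the fit of all 10 libraries, after the correction for exon length and with the strand column. With 1 library left out they ranged from 0 to 9; a group then had a lone library, assumed to vary like the others. DESeq2's size factors and a filter at 1 CPM gave 5 and limma-voom 6, each including the same 5 genes. For the difference, 0 calls became 1 without a filter, after the exon length correction and with pseudogene reads added to the parent, and 0 to 1 with a library left out. Adding pseudogene reads left the counts at 0 with dCas9 and 5 with the zinc finger, and its use for counts of calls and named members was chosen after seeing the data. The median of the members ranged from -0.025 to 0.0675 with dCas9 and from 0.0620 to 0.117 with the zinc finger. Where calls were lost or gained, the cause was not tested. For the named members no called change reversed, and 39 of the values under an alternative lost and 7 gained a call. Whether same-numbered libraries pair is not settled. In the dCas9 comparison their deviations correlated at 0.238, 0.161 and 0.0397, and those of differently numbered libraries at -0.226 to 0.101. With the zinc finger the values were 0.0662 and -0.0662. With 2 libraries a group these are equal in size by construction and cannot decide it. With the replicate number as a block, 0 members passed with dCas9, 10 with the zinc finger and 2 (Rpl13a and Rplp1) for the difference. Depth, lowest in ZF-SCN9A, limits the low members most, since Rpl24, Rpl36al and Rps27rt rest on few reads.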
